A study of Mus musculus with 12 samples.

Results

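The libraries that carried the fusion protein treatment, 6 of the 12 in the series, were set against the 6 that did not, over all measured genes and with radiation as an additive factor. Each library holds total RNA of live cells sorted from a mouse tumour for CD45, the phosphatase that all leukocytes carry, and CD11c, an integrin chain carried by dendritic cells and by many macrophages, activated T cells and natural killer (NK) cells. The mice were wild type, and all bore tumours of B16-OVA, a melanoma line made to express the model antigen ovalbumin. Of the 6 libraries with the fusion protein, 3 came from mice given it alone (group fusion protein) and 3 from mice that also received 20 Gy of radiation (group combined). Of the 6 without it, 3 came from mice with no treatment (group untreated) and 3 from mice given 20 Gy alone (group 20 Gy). Tumours had grown for 10 days when radiation was given, the fusion protein was dosed first at 20 mcg (day 10) and again at 10 mcg (day 14), and tumours were collected on day 17. What the fusion protein consists of is not given in the sources used here. Whether each library of a group was a mouse of its own is not stated in the labels. The p-values therefore reflect only how these libraries vary, which may be technical.

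Type I interferons are cytokines that bind one receptor, IFNAR, on nearly all cells. The receptor's kinases JAK1 and TYK2 activate STAT proteins, which join IRF9 and switch on genes that restrict viruses and raise antigen presentation. Conventional dendritic cells are usually divided into cDC1, which present antigen from dead cells to CD8 T cells, and cDC2, which mainly serve CD4 T cells. Plasmacytoid dendritic cells are known as large producers of type I interferon.

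Between 14462032 and 23985496 reads fell in genes per library. Ptprc, which encodes CD45, had 30925 to 53839 normalized counts, and Itgax, which encodes CD11c, 2226 to 9497, so both sort markers were present in every library. Some libraries stood apart on measures that the treatment labels do not name. Among 1480 genes for olfactory and other chemosensory receptors, which immune cells do not normally use, 5.47% to 64.19% had a read in the libraries with the fusion protein and 5.54% to 84.86% in those without. The 3 highest shares were in 20 Gy library 1, 20 Gy library 2 and combined library 1. The melanocyte gene Tyrp1 was highest in the 4 libraries numbered 3, one in each group. Several counts of list members below were lower without the 3 libraries with most receptor genes, and are given with that value. That fit has 9 libraries, and its 20 Gy group holds 20 Gy library 3 alone. It therefore cannot separate an effect of receptor gene reads from the loss of libraries. A fit of all 12 libraries that adjusted for the level of these receptor genes called 659 genes (407 higher, 252 lower). Without that adjustment it was 699 (428 higher, 271 lower).

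Of 18274 genes tested, 428 rose with the fusion protein (2.34%) and 271 fell (1.48%), 699 in all (3.83%; limma, Benjamini-Hochberg adjusted p under 0.05). Over all tested genes, 47.8% had a log2 fold change above 0, and the median was −0.018. These shares are the background for every count of list members below. The rises were larger in number and reach: 126 rises exceeded a log2 fold change of 2, against 50 falls past −2. For 283 of the 428 rises, all 6 libraries with the fusion protein lay above all 6 without, an order found in 1.86% of all tested genes. For 157 of the 271 falls, all 6 lay below, against 1.2% of all tested genes. Calls and order come from the same values, so the order is no separate support for the calls. Protein-coding genes made up 375 of the rises and 263 of the falls. With another scaling (TMM), 542 genes rose and 191 fell, so the share of rises depends on the scaling. In sorted bulk RNA, fewer cells of a type and less RNA per cell cannot be told apart, which holds for every fall described here.

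**Figure D1:**
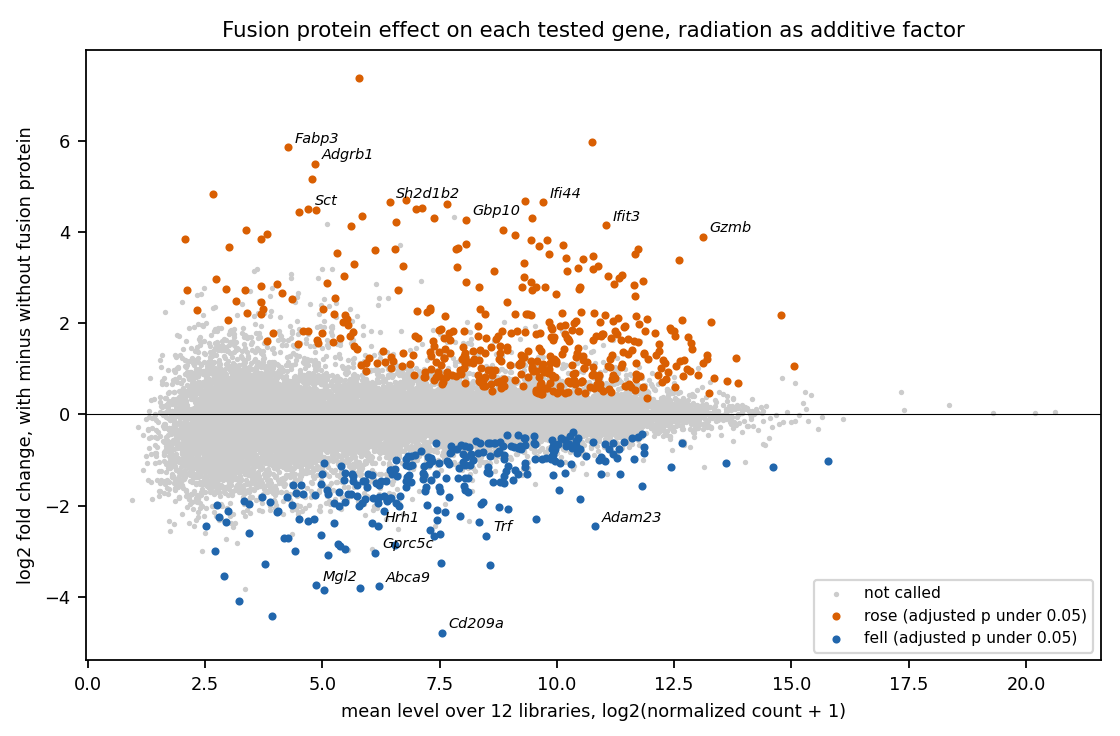
Log2 fold change of each of the 18274 tested genes (vertical axis, with minus without the fusion protein) against its mean level over 12 libraries (horizontal axis, log2 scale). Orange points are the 428 rises and blue points the 271 falls past an adjusted p of 0.05; Cd209a is the lowest labelled point at −4.78 and Fabp3 the highest at 5.85.

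Among the 14 largest rises with groups that did not overlap, at least 7 were well-known interferon-induced genes: Ifi44, Ifit3b, Ifit3, Ifit1bl1, Oas1g, Oasl1 and Gbp10. Each set of 3 values below gives the lowest, the median and the highest of 6 libraries, in normalized counts. Ifi44, an interferon-induced gene on chromosome 3 (151730922 to 151749960, build GRCm38), had 1862, 5070.4 and 7703 with the fusion protein, against 131, 137.7 and 289.2 without. This is a log2 fold change of 4.65 ± 0.32 (SE; adjusted p = 7.15e-06 by limma). Ifit3, which binds viral RNA complexes (chromosome 19, 34583531 to 34588731), had 5879, 8578 and 13095 with it, against 350.4, 477.9 and 978.9 without. The log2 fold change of Ifit3 was 4.15 ± 0.26 (adjusted p = 3.76e-06), and that of its near-identical neighbour Ifit3b, which may share reads with it, was 4.30 ± 0.23 (2.17e-06). In both genes the lowest library with the fusion protein stood several-fold above the highest without.

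The rest of the largest rises are described here by other functions. Whether they too respond to interferon, as Siglec1 may, was not tested. Fabp3, a fatty acid carrier of heart muscle (chromosome 4, 130308595 to 130315463), had 38.5, 185.4 and 320.2 counts with the fusion protein, against 0, 1.28 and 18.3 without (log2 fold change 5.85 ± 0.63, adjusted p = 0.000174). Adgrb1, an adhesion receptor that recognises phosphatidylserine on dying cells, had 42.5, 231.6 and 491.1, against 0, 3.37 and 15 (5.49 ± 0.63, 0.000265). Sh2d1b2, an adaptor of SLAM family receptors in NK and myeloid cells, had 317.1, 445 and 559.5, against 5.99, 17.1 and 32.1 (4.64 ± 0.39, 2.48e-05). All 3 were near the bottom of detection in the libraries without the fusion protein. Sct, the hormone secretin and also a transcript of mouse plasmacytoid dendritic cells, had 89.9, 124.7 and 184.7 counts, against 0, 6.74 and 13.4 (4.50 ± 0.56, 0.000552). Siglec1, which encodes the macrophage lectin CD169, rose by 4.05 ± 0.36 (4.08e-05). Spon1, a secreted matrix protein, rose by 3.94 ± 0.56 (0.00136). Gzmb, granzyme B of cytotoxic granules, had 16943, 29751 and 105349 counts with the fusion protein, against 804.3, 1731 and 7794 without (3.90 ± 0.60, 0.00248). All 14 genes kept their call whichever of the 12 libraries was dropped.

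The largest fall among named genes was that of a lectin. Cd209a, a relative of the human lectin DC-SIGN that marks type 2 and monocyte-related dendritic cells (chromosome 8, 3743397 to 3748984), had 16.5, 40.8 and 58.2 counts with the fusion protein, against 711.4, 1038 and 1203 without. It fell by 4.78 ± 0.28 on the log2 scale (adjusted p = 2.60e-06), and its groups were wide apart. Cd209d, a second member of that family, fell by 3.84 ± 0.55 (0.00154), and Mgl2, a galactose-binding lectin known as CD301b, by 3.75 ± 0.66 (0.00664). Mgl2 had 1.57, 7.25 and 17.1 counts with the fusion protein, against 35.2, 96.2 and 514.3 without.

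Several of the falling genes encode receptors for growth factors and small mediators. Fgfr1, a fibroblast growth factor receptor (chromosome 8, 25513654 to 25575718), had 47.2, 72.7 and 107.9 counts with the fusion protein, against 253.4, 480.4 and 614.2 without (−2.63 ± 0.23, adjusted p = 3.73e-05). Ngfr, the p75 neurotrophin receptor, had 5.39, 14 and 40.5, against 90.6, 252 and 380.7 (−3.80 ± 0.49, 0.000763). Hrh1, the histamine H1 receptor, had 16.2, 28.6 and 50.3, against 98.6, 201.9 and 239.6 (−2.45 ± 0.32, 0.000767). None of the 3 overlapped between groups, which the rule that named the 14 largest falls required. Gprc5c, an orphan G protein-coupled receptor, fell by 3.03 ± 0.26 (3.04e-05). Tlr11, a mouse receptor for the parasite protein profilin, fell by 2.86 ± 0.60 (0.0193) and kept its call in 10 of 12 fits with a library dropped.

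The remaining large falls were Abca9, Hepacam2, P3h2, Rnf150, Trf and Adam23. Trf, the iron carrier transferrin, had 85.7, 131.3 and 350.5 counts with the fusion protein, against 352, 1011 and 1421 without (−2.66 ± 0.39, adjusted p = 0.00165). Its groups only just missed each other, at 350.5 and 352. Adam23, an integrin-binding protein of the ADAM family, fell by 2.45 ± 0.49 (0.0143). P3h2, a collagen prolyl hydroxylase, fell by 2.89 ± 0.53 (0.00804), Hepacam2, an immunoglobulin-domain adhesion protein, by 2.95 ± 0.46 (0.00267), and Rnf150, a RING finger protein, by 2.67 ± 0.35 (0.000789). Abca9, a transporter of the ABCA family, fell by 3.77 ± 0.89 (0.0349) and was called in 3 of the 12 fits, the fewest of the 14 falls.

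**Figure D2:**
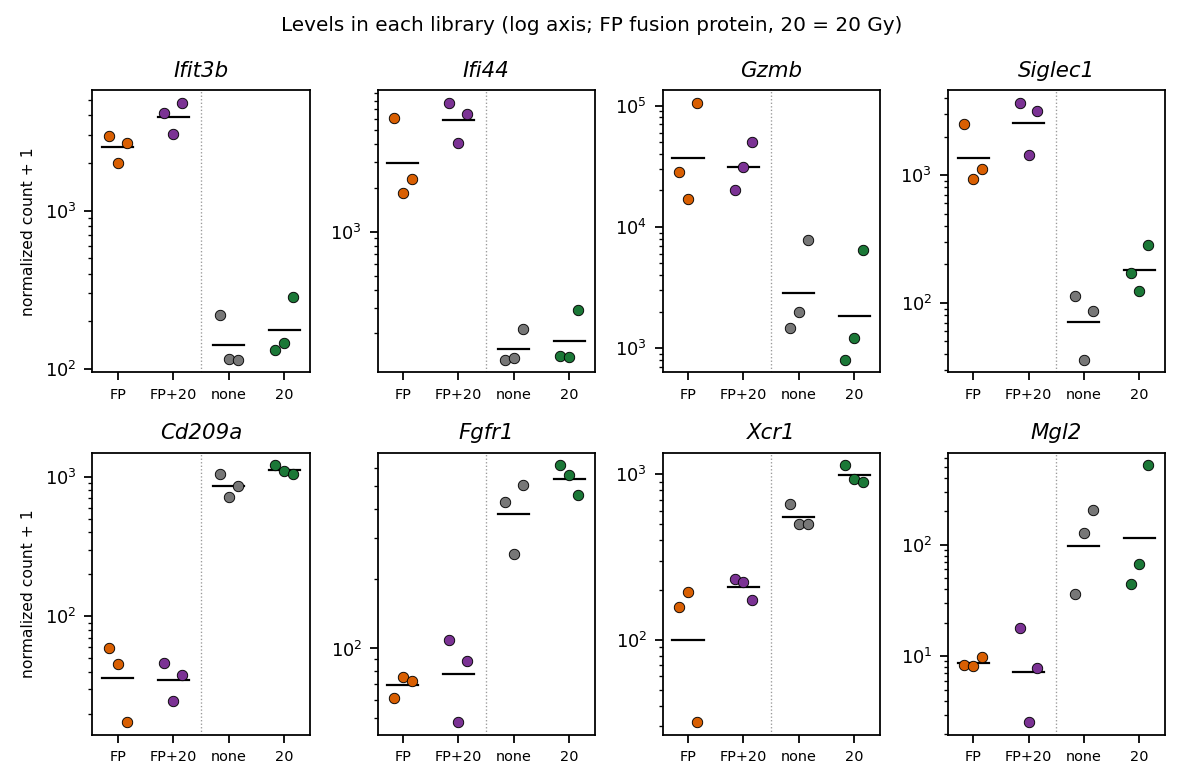
Normalized count plus 1 (vertical log axis) of 8 genes in each library: FP, fusion protein; FP+20, combined; none, untreated; 20, 20 Gy alone. Points are libraries numbered 1 to 3 from left to right and bars are geometric means of 3. In all 8 panels the 6 points left of the dotted line do not overlap the 6 on the right. The rule that named these genes required this, except for Xcr1.

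The promoters of the rising genes were compared for GAAA, 2 bases of any kind and GAAA again, the core of the interferon-stimulated response element that STAT proteins and IRF9 bind together. Windows of 300 bases, from 250 before to 50 after each start, came from RefSeq (build GRCm38.p6), and a gene with several starts counted as holding the motif if any of its windows did on either strand. Of 306 rising genes with a window, 66 held it (21.6%). Among rising genes outside the type I interferon list described below, it was 51 of 279 (18.3%). These still included members of the interferon gamma list, such as Gbp5, Irgm2 and Tgtp1, and of the Ifi200 family, such as Ifi203. The 18.3% is therefore not a share of genes unrelated to interferon. Some related genes held the same stretch, as Mndal and Ifi203 did, so not all matches are independent. Of 203 falling genes, 8 held it (3.94%), close to the 459 of all 11625 tested genes with a window (3.95%) and to the 1131 of all 32851 windows of the table (3.44%). Windows per gene were alike, at 1.245 for rising, 1.325 for falling and 1.272 for all tested genes. The motif TTCCNGGAA, a form of the gamma-activated site that STAT dimers bind, was in 11 of 306 rising genes (3.59%), 3 of 203 falling genes (1.48%) and 179 of all 11625 (1.54%). A match is a run of letters and not a shown binding site.

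Of the 14 largest rises, 10 had a window and 4 held this core (Ifit3b, Ifit3, Ifit1bl1 and Oas1g). Of the 14 largest falls, 9 had a window and 2 held it (Tlr11 and Hrh1). The window of Ifit3 (chr19:34583279-34583578, plus strand) is shown because it has 2 matches to the reverse complement, in capitals, and the window of Cd209a (chr8:3748935-3749234, minus strand), the largest fall, because it has 0.
Ifit3: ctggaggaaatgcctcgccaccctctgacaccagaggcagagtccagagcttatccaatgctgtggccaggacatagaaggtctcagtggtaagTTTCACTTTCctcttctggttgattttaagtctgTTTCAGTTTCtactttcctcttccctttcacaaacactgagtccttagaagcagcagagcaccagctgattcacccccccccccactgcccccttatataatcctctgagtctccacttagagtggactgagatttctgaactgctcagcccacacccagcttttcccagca
Cd209a: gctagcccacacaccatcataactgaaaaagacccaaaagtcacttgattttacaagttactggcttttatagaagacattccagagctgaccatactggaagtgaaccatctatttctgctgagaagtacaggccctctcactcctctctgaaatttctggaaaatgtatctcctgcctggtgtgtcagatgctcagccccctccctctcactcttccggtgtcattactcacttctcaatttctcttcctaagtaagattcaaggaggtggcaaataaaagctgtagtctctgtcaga

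Matches were also present in rising genes of different function, and stretches of 40 bases around 5 of them are shown to set them side by side, with the match in capitals. They are Oas3 (chr5:120777710-120777749, minus strand), which makes the messenger that activates RNase L, Ifit1 (chr19:34640770-34640809, plus strand), which binds foreign RNA ends, Irgm2 (chr11:58214898-58214937, plus strand), an immunity-related GTPase, H2-T22 (chr17:36042909-36042948, minus strand), a non-classical class I molecule, and Gzma (chr13:113101054-113101093, minus strand), a granule protease. The match began 75 bases before the start in Oas3, 104 in Ifit1, 64 in Irgm2, 191 in H2-T22 and 97 in Gzma.
Oas3: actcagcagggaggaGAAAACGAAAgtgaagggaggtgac
Ifit1: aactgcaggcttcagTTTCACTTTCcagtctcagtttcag
Irgm2: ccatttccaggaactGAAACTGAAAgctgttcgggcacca
H2-T22: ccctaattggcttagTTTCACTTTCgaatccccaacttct
Gzma: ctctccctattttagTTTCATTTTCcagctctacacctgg

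The interferon pathway was read from ligand to target. Of 17 ligand genes tested (interleukins, related cytokines and, of the interferons, Ifng alone), 2 rose and 0 fell. No type I interferon gene was among the 17, so these counts do not cover the type I ligands. Il15, a growth factor for NK cells and memory T cells, had 135.7, 306 and 540.3 counts with the fusion protein, against 81.1, 120 and 214.7 without (log2 fold change 1.23 ± 0.30, adjusted p = 0.0426). Il18bp, a secreted inhibitor of IL-18, had 147.9, 276.4 and 753.5, against 83.6, 130.7 and 171.4 (1.23 ± 0.30, 0.0434). Both genes overlapped between groups, and neither kept its call whichever library was dropped, or without the 3 libraries with most receptor genes. Ifng, the interferon of T and NK cells, had 633.1, 1004 and 2213 counts, against 215.6, 416.1 and 2681 (0.97 ± 0.53, 0.429), and untreated library 3 had the highest value of all 12.

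Of 18 genes for interferon receptors and their signalling, 4 rose and 0 fell, with a median log2 fold change of 0.12. The receptor chains did not pass: Ifnar1 had a log2 fold change of −0.15 ± 0.13 (adjusted p = 0.692) and Ifnar2 of 0.12 ± 0.16 (0.813). Their kinases did not pass either, with Jak1 at −0.06 and Tyk2 at 0.12. Those that rose included the transcription factors Stat2 and Irf9 and the negative regulator Usp18, which removes the ubiquitin-like ISG15 and blocks IFNAR2. Stat2 had 3238, 5373 and 9126 counts with the fusion protein, against 871.2, 1666 and 2036 without (1.91 ± 0.26, 0.001). Irf9 had 2862, 3183 and 3501, against 1558, 1882 and 2099 (0.80 ± 0.11, 0.00083). Usp18 had 4106, 5708 and 7712, against 366.9, 481.3 and 890 (3.48 ± 0.22, 3.76e-06). These 3 had groups that did not overlap and kept their calls whichever library was dropped.

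Among 22 innate sensing genes, 6 rose (2.34% of all tested genes did) and 0 fell, with a median of 0.41. With 1 library left out, 4 to 5 members rose, and 4 kept their calls whichever library was dropped. Without the 3 libraries with most receptor genes, 3 rose. The 6 were sensors of nucleic acids. Ddx58, which encodes the RNA sensor RIG-I, rose by 1.93 ± 0.14 (adjusted p = 1.00e-05), Ifih1, which encodes MDA5, by 2.06 ± 0.26 (0.000567), and Zbp1, a sensor of Z-form nucleic acid, by 2.59 ± 0.27 (0.00013). Cgas, the cytosolic DNA sensor, rose by 0.97 ± 0.23 (0.0348), and the endosomal receptors Tlr9, for DNA, and Tlr7, for RNA, by 1.04 ± 0.20 (0.0102) and 0.91 ± 0.22 (0.0419). Tlr3, an endosomal receptor for double-stranded RNA that cDC1 carry, had 180.2, 451.8 and 808.2 counts with the fusion protein and 151, 443 and 832.5 without (0.05 ± 0.30, 0.973).

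All 37 tested type I interferon response genes rose, with a median log2 fold change of 2.86 against −0.018 over all tested genes. The smallest change was that of Irf9 at 0.80, and the largest that of Slfn4, a schlafen family gene of myeloid cells, at 5.97. In 33 of the 37 the 6 libraries with the fusion protein lay above the 6 without. All 37 kept their calls whichever library was dropped, and 36 rose without the 3 libraries with most receptor genes. Oas3 had 4513, 5538 and 7711 counts with the fusion protein, against 413.4, 540.3 and 1233 without (3.26 ± 0.19, adjusted p = 2.60e-06). Irf7, a transcription factor that amplifies interferon production, had 14951, 19267 and 26922, against 1318, 1800 and 4130 (3.39 ± 0.24, 8.44e-06). Mx1, a GTPase that blocks influenza viruses, had 3627, 8863 and 15783, against 493.5, 1089 and 1428 (3.05 ± 0.33, 0.000179). The lowest library with the fusion protein was above the highest without in all 3. In Isg15, a ubiquitin-like modifier, the groups overlapped, with 1115, 3617 and 7060 counts against 125, 163.4 and 1245 (3.81 ± 0.53, 0.00124). The high library without the fusion protein in Isg15 and in the list as a whole was 20 Gy library 3. Summed over the list, levels were 126100, 206500 and 314300 normalized counts with the fusion protein, against 27070, 32330 and 59880 without.

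Genes best known for induction by interferon gamma rose in part. Of 26 tested, 12 rose and 0 fell, with a median of 1.56 (7 rose without the 3 libraries with most receptor genes), and all 12 were guanylate-binding proteins or immunity-related GTPases, which attack the membranes of compartments that hold pathogens. Gbp4 had 4360, 5091 and 6377 counts with the fusion protein, against 1197, 1765 and 2042 without (1.66 ± 0.16, adjusted p = 7.25e-05). Gbp6 rose by 3.15 ± 0.41 (0.000762), Gbp10 by 4.27 ± 0.31 (8.70e-06) and Irgm2 by 1.76 ± 0.19 (0.000175). Other members of that list had an adjusted p above the threshold, among them the transcription factor Irf1 (0.76, 0.419), the inhibitor Socs1 (1.07, 0.491), the tryptophan-degrading enzyme Ido1 (0.60, 0.843) and the nitric oxide synthase Nos2 (1.20, 0.767). Near-identical genes within the Gbp, Oas, Ifit and Tgtp families may share reads.

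Of 21 genes of MHC class I presentation, 12 rose, against 2.34% of all tested genes, and 0 fell. The rises were smaller than those of the antiviral genes (median 0.78). The non-classical H2-T22 had 5746, 6840 and 8465 counts with the fusion protein, against 982.9, 1603 and 2377 without (2.15 ± 0.21, adjusted p = 9.33e-05). Nlrc5, the transcriptional activator of class I genes, had 6834, 8839 and 10200.1, against 3530, 4127 and 5126 (1.05 ± 0.14, 0.000946). H2-Q7 rose by 1.44 ± 0.19 (0.000833), H2-T24 by 2.01 ± 0.29 (0.00148) and the classical H2-K1 by 1.05 (0.0052). The immunoproteasome genes Psmb9 (0.73) and Psmb10 (0.82) and the peptide transporter Tap1 (0.78) were among the 12. B2m, the shared light chain, was at 0.81 with an adjusted p of 0.0921. Of the 12, 8 kept their call whichever library was dropped, and 4 of the 21 rose without the 3 libraries in which receptor genes were most detected.

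**Figure D3:**
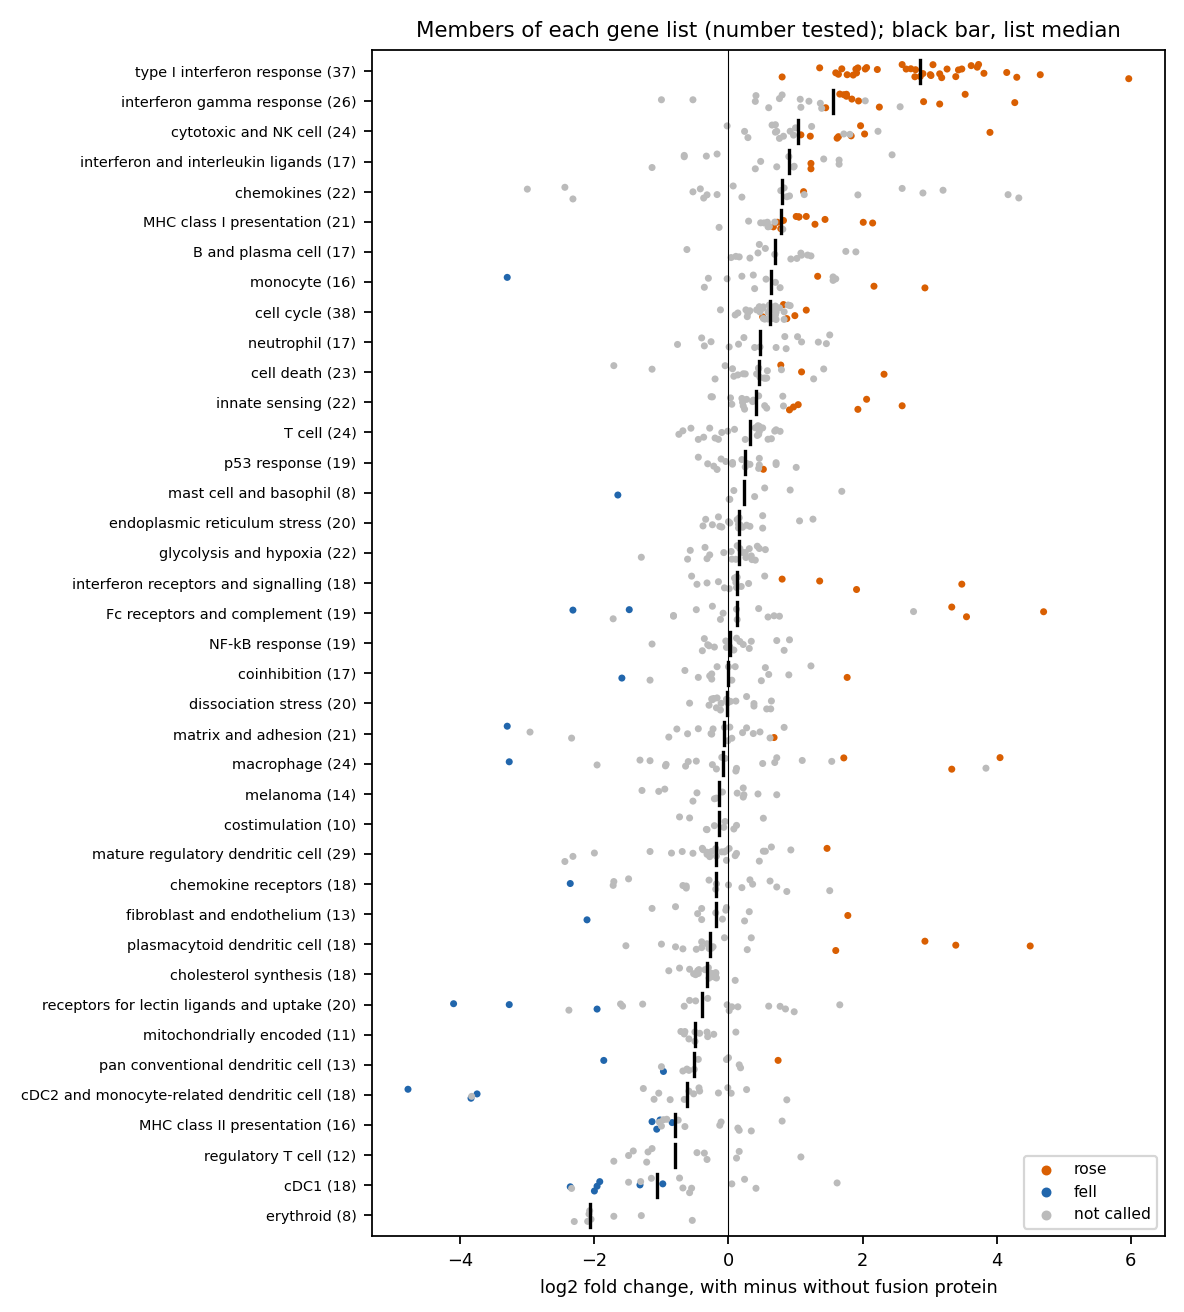
Log2 fold change (horizontal axis, with minus without the fusion protein) of every tested member of 39 gene lists, with the number tested in brackets. Orange members rose, blue members fell and grey members did not pass; black bars are medians, from 2.86 for the type I interferon list to −2.06 for the erythroid list, in which 0 members passed.

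Of 16 MHC class II genes tested, 0 rose and 4 fell, against 1.48% of all tested genes that fell. Of the 16, 12 were lower and 4 higher, with a median of −0.80. H2-Ab1, a beta chain of the class II molecule, had 7880, 19200 and 22259 counts with the fusion protein, against 22957, 40458 and 52901 without (−1.14 ± 0.24, adjusted p = 0.0186). H2-Eb1 fell by 1.07 ± 0.23 (0.0218), Cd74, the invariant chain that guards the peptide groove, by 1.02 ± 0.23 (0.0261), and H2-DMa, a chain of the peptide exchange factor, by 0.84 ± 0.21 (0.0434). In all 4 the groups did not overlap, and in each the lowest library was fusion protein library 3. Ciita, the activator of class II genes, had 639.4, 3191 and 4952 counts, against 2647, 5596 and 8910 (−1.0 ± 0.46, 0.32). The number of falls in this list was 1 to 5 when 1 library was left out, 0 without the 4 libraries numbered 3, in which melanocyte transcripts were highest, and 0 without the 3 libraries with most receptor genes. Fits with the melanoma level or the receptor gene level as a covariate were run over all genes (1827 and 659 calls), and their counts for this list are not given here. Whether melanoma or receptor gene reads caused the falls was not tested.

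Of 18 cDC1 genes, 0 rose and 6 fell (1.48% of all tested genes fell), with a median of −1.06. Xcr1, the chemokine receptor that defines cDC1, had 30.8, 182.1 and 232.8 counts with the fusion protein, against 500.5, 783.6 and 1132 without (−2.36 ± 0.36, adjusted p = 0.00234). Cadm1, an adhesion molecule of cDC1, had 159.7, 170.7 and 193.5, against 301, 828.8 and 1128 (−1.92 ± 0.26, 0.000942). The 6 values of Cadm1 with the fusion protein were close together, and those without it were spread. Gcsam, a signalling protein named for germinal centres, fell by 2.00 ± 0.28 (0.00117), Naaa, a lysosomal amidase, by 1.32 ± 0.25 (0.0094), the lipid scavenger Cd36 by 1.96 ± 0.39 (0.0129) and the lysosomal thioesterase Ppt1 by 0.98 ± 0.21 (0.0204).

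Not all cDC1 genes took part. Clec9a, a receptor for dead cells, had 187.9, 740.5 and 1927 counts with the fusion protein, against 540.4, 1106 and 2146 without (−0.73 ± 0.45, adjusted p = 0.502). The transcription factor Batf3 was at −0.55 (0.605), and Irf8, which is also an interferon gamma target, at 0.41 (0.385). Falls in the cDC1 list numbered 5 to 8 when 1 library was left out, 3 without the libraries numbered 3 and 2 without the 3 libraries with most receptor genes. Xcr1 was not among those last 2.

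For cDC2 and monocyte-related dendritic cells, 3 of 18 genes fell and 0 rose (median −0.63), namely the lectins Cd209a, Cd209d and Mgl2. Irf4, a transcription factor of cDC2, was at −0.66 (adjusted p = 0.202) and the surface receptor Sirpa at −0.59 (0.271). The lectin and uptake receptor list had 3 falls among 20 genes (Cd209e, Mrc1 and Cd36), and 0 without the 3 libraries with most receptor genes. Cd209e had 0, 1.29 and 9.12 counts with the fusion protein, against 24.7, 35.9 and 66.2 without (−4.10 ± 0.63, 0.00244). Mrc1, the macrophage mannose receptor, had 16.2, 67 and 165.7, against 44.9, 914.7 and 1474 (−3.27 ± 0.74, 0.0277), an overlap due to untreated library 2.

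Across conventional dendritic cells in general, 2 of 13 genes fell and 1 rose (median −0.51; 1 and 0 without the 3 libraries with most receptor genes). Flt3, the receptor for the growth factor that maintains dendritic cells, had 242.8, 841.8 and 1606 counts with the fusion protein, against 1776, 3052 and 3690 without (−1.86 ± 0.31, adjusted p = 0.00463). Zbtb46, a transcription factor restricted to this lineage among myeloid cells, fell by 0.97 ± 0.21 (0.0229). Jaml, an adhesion molecule, rose by 0.74 ± 0.14 (0.00892). Kit, the stem cell factor receptor, which stood in the mast cell list, had 456, 634.9 and 734.5 counts, against 1289, 1836 and 2943 (−1.65 ± 0.20, 0.000465), while the mast cell genes Cpa3 and Ms4a2 were at 0.02 and 0.54. Itgax had 2226, 4345 and 7320 counts, against 4054, 6153 and 9497 (−0.45 ± 0.29, 0.531).

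Of 18 plasmacytoid dendritic cell genes, 4 rose and 0 fell, but the median was −0.27 and 12 were lower. Without the 3 libraries with most receptor genes, 3 rose. The 4 were Irf7 and Bst2, which are also in the type I interferon list, the secretin gene Sct, and Ly6c2, a surface antigen shared with monocytes. Siglech, a lectin that defines the cell type in mice, was at −1.0 (adjusted p = 0.202), and its transcription factor Tcf4 at −0.48 (0.194).

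Of 16 monocyte genes, 3 rose and 1 fell (2 and 0 without the 3 libraries with most receptor genes), against 2.34% and 1.48% of all tested genes. Ly6c2 had 5443, 10177 and 15265 counts with the fusion protein, against 601, 1487 and 2885 without (2.93 ± 0.41, adjusted p = 0.00118). Ms4a4c, a membrane protein of the MS4A family, rose by 2.17 ± 0.23 (0.000153), and Plac8, a cysteine-rich protein, by 1.33 ± 0.27 (0.015). Fn1, which encodes fibronectin, fell by 3.30 ± 0.67 (0.015), while Lyz2, the lysozyme of myeloid cells, was at −0.02 (0.993) and Ccr2, the chemokine receptor of inflammatory monocytes, at 0.20 (0.647).

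Of 24 macrophage genes, 3 rose and 1 fell (1 and 0 without those 3 libraries), against 2.34% and 1.48% of all tested genes. Beside Siglec1, Axl, a receptor for dying cells, had 1629, 3069 and 5530 counts, against 340.7, 1401 and 1585 (1.72 ± 0.33, 0.0103). Fcgr1, the high-affinity IgG receptor, had 449.8, 2156 and 4885, against 30, 197.9 and 1119 (3.33 ± 0.65, 0.0122). The fall was that of Mrc1. Adgre1, which encodes F4/80, was at −0.93 (0.287) and Csf1r at −0.60 (0.529). The list median was −0.08, at −0.80 with radiation and 0.59 without it (the difference was not tested).

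Of 19 Fc receptor and complement genes, 3 rose and 2 fell (1 and 1 without those 3 libraries). Cfb, factor B of the alternative pathway, had 84.6, 122.7 and 235.6 counts with the fusion protein, against 4.49, 10.7 and 26.2 without (3.55 ± 0.39, adjusted p = 0.000191). C4b, a component of the classical pathway, had 213.7, 561.3 and 1128, against 0, 23.2 and 285.3 (4.70 ± 0.87, 0.00842). Fcgrt, the neonatal Fc receptor, had 109.9, 316.7 and 383.9, against 615.6, 722.5 and 985.5 (−1.48 ± 0.24, 0.00361). The C1q chains did not pass, with C1qa at −0.48, C1qb at 0.12 and C1qc at −0.24.

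Granule proteins and receptors of cytotoxic lymphocytes were among the rises. Of 24 cytotoxic and NK cell genes, 8 rose and 23 were higher, against 2.34% and 47.8% of all tested genes. Of the 24, 0 fell, and the median was 1.04. Gzma, a granule protease, had 13491, 19228 and 32805 counts with the fusion protein, against 3491, 5319 and 6594 without (2.03 ± 0.21, adjusted p = 0.000118). Prf1, perforin, had 3892, 6589 and 18080.0, against 928.4, 2469 and 3323 (1.83 ± 0.32, 0.00625). Neither gene overlapped between groups. The NK cell receptors Klra7 (1.64 ± 0.22, 0.001) and Klre1 (1.08, 0.0424) and the inhibitory receptor Klrg1 (1.62 ± 0.21, 0.000686) rose as well. Ncr1, which encodes the NK cell receptor NKp46, was at 0.70 (0.114) and Eomes, a transcription factor of NK and memory T cells, at 0.29 (0.697). Between 5 and 10 members rose when 1 library was left out, and 4 without the 3 libraries with most receptor genes.

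Markers of T cells did not pass the test. Of 24 T cell genes 0 rose and 0 fell, with a median of 0.32; their summed levels were 14820, 34580 and 61240 counts with the fusion protein and 10960, 27220 and 78520 without, and every member had reads in every library. The signalling genes Lck (0.69, adjusted p = 0.207) and Zap70 (0.77, 0.221) were the members of smallest p. Summed levels of the cytotoxic list were 73230, 109000 and 223800 with it, against 20780, 38620 and 73450 without. CD11c is carried by part of the NK and activated T cells, and the share of such cells in the sort was not measured here. Of 12 regulatory T cell genes 0 passed (median −0.80). With the replicate block described in the section on processing, 4 of these 12 fell, against 945 of all 18274 tested genes. In that fit 3 of the 24 T cell genes rose, against 1186 of all tested genes. Ccl5, a chemokine that NK cells, T cells and myeloid cells make, had 9472, 12067 and 22236 counts, against 3048, 6954 and 9771 (1.12 ± 0.18, 0.00407).

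Of 38 cell cycle genes, 5 rose and 37 were higher, against 2.34% and 47.8% of all tested genes. Of the 38, 0 fell, and the median was 0.61. Tpx2, a spindle assembly factor, had 539.9, 1039 and 1579 counts with the fusion protein, against 361.7, 457.2 and 719.8 without (1.16 ± 0.23, adjusted p = 0.0134). The mitotic motor Cenpe rose by 0.99 ± 0.20 (0.0178), the midzone protein Prc1 by 0.87 ± 0.19 (0.0241), the kinase Plk1 by 0.82 ± 0.20 (0.0422) and Mcm7, a subunit of the replicative helicase, by 0.51 ± 0.13 (0.0447). Between 2 and 10 members rose when 1 library was left out, 12 with TMM scaling, and 0 without the 3 libraries with most receptor genes. Of 23 cell death genes, 3 rose: Casp8, an initiator caspase (0.78 ± 0.11, 0.000922), Mlkl, the effector of necroptosis (2.32 ± 0.39, 0.00439), and Tnfsf10, the death ligand TRAIL (1.09 ± 0.27, 0.0424). Without the 3 libraries with most receptor genes, 1 of the 23 rose. Of 19 p53 response genes, 1 rose, near the 2.34% of all tested genes. It was the nuclease Aen (0.52 ± 0.11, 0.0218), which lost its call in some fits with a library dropped and without those 3 libraries.

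Lists of other cells and programs had few calls or none. No member passed among 17 B and plasma cell genes (median 0.69), 17 neutrophil genes (0.47), 8 erythroid genes (−2.06), 14 melanoma genes (−0.13), 10 costimulation genes (−0.14), 19 NF-kB response genes (0.02), 22 glycolysis and hypoxia genes (0.15), 20 endoplasmic reticulum stress genes (0.15), 20 dissociation stress genes (−0.02) and 11 mitochondrially encoded genes (−0.50). Cholesterol synthesis genes also had 0 calls, though 17 of 18 were lower (median −0.32), whereas 47.8% of all tested genes were higher. Erythroid transcripts had summed levels of 4.05, 261 and 498.9 counts with the fusion protein and 7.5, 1787 and 3605 without, and 5 of the 8 members were at 0 in at least 1 library. Their mean log2 level was highest in the libraries of 20 Gy alone (8.35, 8.0 and 7.36), against 5.71, 3.37 and 5.41 in the combined group. The list median was −3.5 with radiation and −0.52 without it (the difference of medians was not tested). Among fibroblast and endothelial genes, Kdr, the VEGF receptor 2, rose by 1.78 ± 0.40 (adjusted p = 0.0255), and Vwf, von Willebrand factor, fell by 2.11 ± 0.44 (0.0181). Among matrix and adhesion genes Adamts14, a collagen-processing protease, rose by 0.68 ± 0.14 (0.0189) and Fn1 fell. In coinhibition, Lgals9, the lectin galectin-9, had 3203, 3771 and 4195 counts with the fusion protein, against 616, 1221 and 1794 without (1.77 ± 0.24, 0.00117), and Cd200r1, an inhibitory receptor of myeloid cells, fell by 1.59 ± 0.37 (0.0302). Of these, Kdr, Vwf, Adamts14, Fn1 and Cd200r1 lost their calls without the 3 libraries with most receptor genes.

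The study's title names Ccl22, a chemokine of mature dendritic cells that attracts regulatory T cells through CCR4. None of the 9 genes fixed for this comparison passed the test of the fusion protein effect in the additive limma fit. Other fits called some of them. DESeq2 called Ccl17 (DESeq2 adjusted p = 0.0458), and a replicate block called Ccl22, Foxp3 and Cxcl10 (values in the section on processing). Ccl22 had 11.6, 113 and 283.6 counts with the fusion protein, against 104.7, 345.6 and 3751 without, a log2 fold change of −2.44 ± 0.97 (limma adjusted p = 0.235). The groups overlapped, and 20 Gy library 3 alone held the value of 3751. Ccl17, a second ligand of CCR4, had 0, 1.88 and 11 counts, against 0, 18.1 and 129.6 (−2.32 ± 1.00, 0.281).

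Other genes of mature dendritic cells had smaller differences. Ccr7, a receptor for homing to lymph nodes, had 507.7, 1846 and 2167 counts with the fusion protein, against 389.8, 1568 and 6545 without (−0.18 ± 0.66, adjusted p = 0.956). Fscn1, an actin-bundling protein, had 377.6, 1453 and 2601, against 454.1, 1394 and 6832 (−0.38 ± 0.65, 0.868). Both differences changed sign when 20 Gy library 3 was left out, to 0.34 and 0.12. Cd274, which encodes PD-L1, had 1424, 2865 and 7654 counts, against 1137, 1547 and 7101 (0.55 ± 0.49, 0.696). Foxp3, which defines regulatory T cells, had 24.3, 87.9 and 366.7, against 51.7, 360.3 and 688.4 (−1.42 ± 0.81, 0.456). Of the 29 genes of the mature regulatory dendritic cell list, 1 rose and 0 fell (median −0.19), the protease inhibitor Cst7 (1.47 ± 0.29, 0.0143), which cytotoxic cells also express and which lost its call without the 3 libraries with most receptor genes.

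Chemokines that attract T cells through CXCR3 differed from each other. Cxcl9 had 247.5, 491.3 and 773.9 counts with the fusion protein, against 328.3, 438.4 and 2604 without (−0.53 ± 0.53, adjusted p = 0.736). Cxcl10 had 411.3, 2028 and 5181, against 67.4, 110.1 and 2730.1 (2.90 ± 0.96, 0.134). In Cxcl10 the libraries numbered 3 of the untreated and 20 Gy groups, at 1494 and 2730.1, lay within the range of those with the fusion protein, and the other 4 without it lay below that range. The gene passed without untreated library 3 or 20 Gy library 3, the only 2 of the 12 libraries whose removal gave a call (adjusted p 0.0366 to 0.274 over the 12). Of 22 chemokine genes in all, 1 rose (Ccl5), whereas 8 rose without the 4 libraries numbered 3 and 0 without the 3 with most receptor genes.

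**Figure D4:**
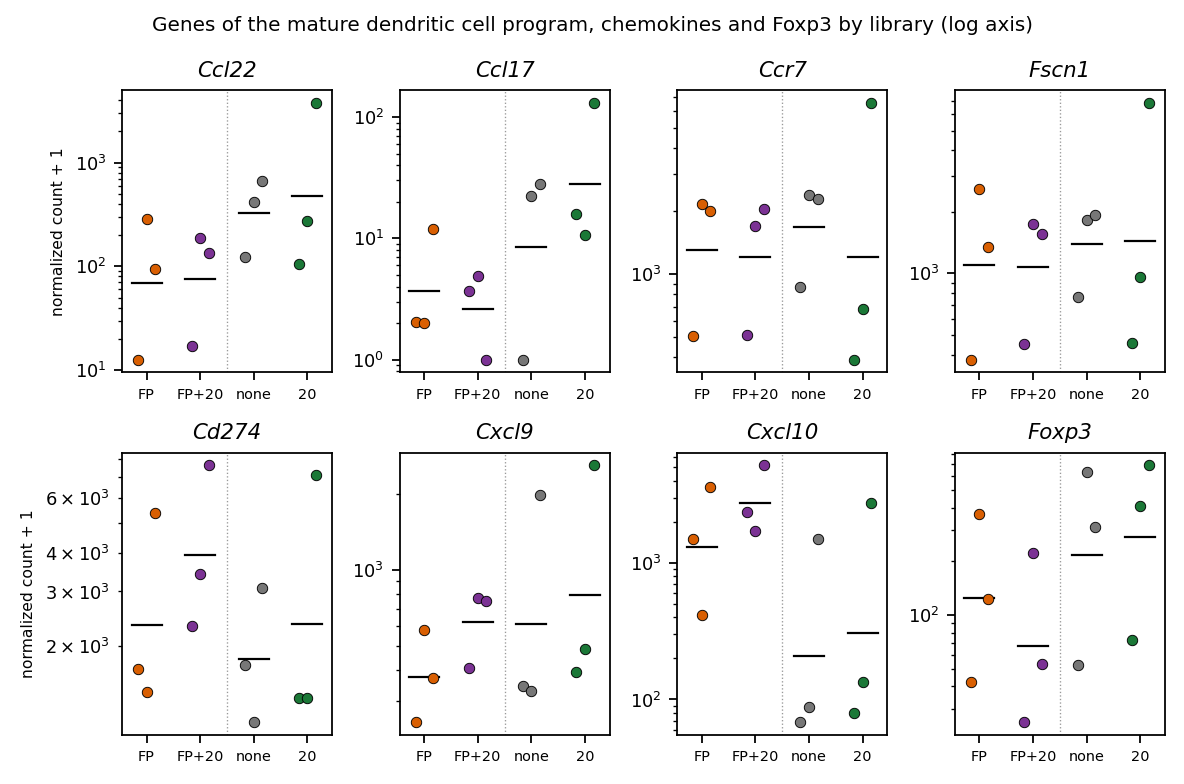
Normalized count plus 1 (vertical log axis) of Ccl22 and 7 other genes in each library, groups and points as in the plot of 8 genes above. Groups to the left and right of the dotted line overlap in every panel; 20 Gy library 3, the last point on the right, is the highest of the 12 for Ccl22 (3751), Ccl17, Ccr7, Fscn1, Cxcl9 and Foxp3.

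The effect was next read apart in unirradiated and irradiated tumours, which share no libraries. In irradiated tumours alone (combined against 20 Gy), 189 genes passed (1.03%), 142 higher and 47 lower. All 142 were also higher in the unirradiated comparison (fusion protein against untreated), where 49.5% of all tested genes were higher, and 136 of them had an unadjusted p under 0.05 there. All 47 were also lower, against 50.5% of all genes, and 30 of them had such a p. The median log2 fold change of the 142 was 2.27 with radiation and 1.91 without, and that of the 47 was −2.30 with radiation and −1.60 without. In unirradiated tumours alone, 18 genes passed (0.0985%), 17 higher and 1 lower.

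Whether radiation altered the effect was tested by an interaction term. Limma called 0 genes (0% of 18274), with 188 at an unadjusted p under 0.05, edgeR called 0 and DESeq2 called 1. Among the 699 genes called for the fusion protein, 5 had an unadjusted interaction p under 0.05 (0.715%, against 1.03% of all tested genes). Tlr9 had a log2 fold change of 1.51 with radiation and 0.58 without (unadjusted p = 0.0118 in the limma fit over all genes). Treml2, a receptor of myeloid and B cells, had 2.32 with radiation and 1.22 without (0.0361). The predicted gene Gm45418 had 3.78 and 1.92 (0.0371), Stxbp6, a syntaxin-binding protein, −2.79 and −1.08 (0.0385), and Klra17, a member of the Ly49 receptor family, −0.83 and −1.95 (0.0441), each with radiation first. None of the 5 passed the adjustment. With 3 libraries per group, a p that misses the threshold does not show that the effects were alike.

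**Figure D5:**
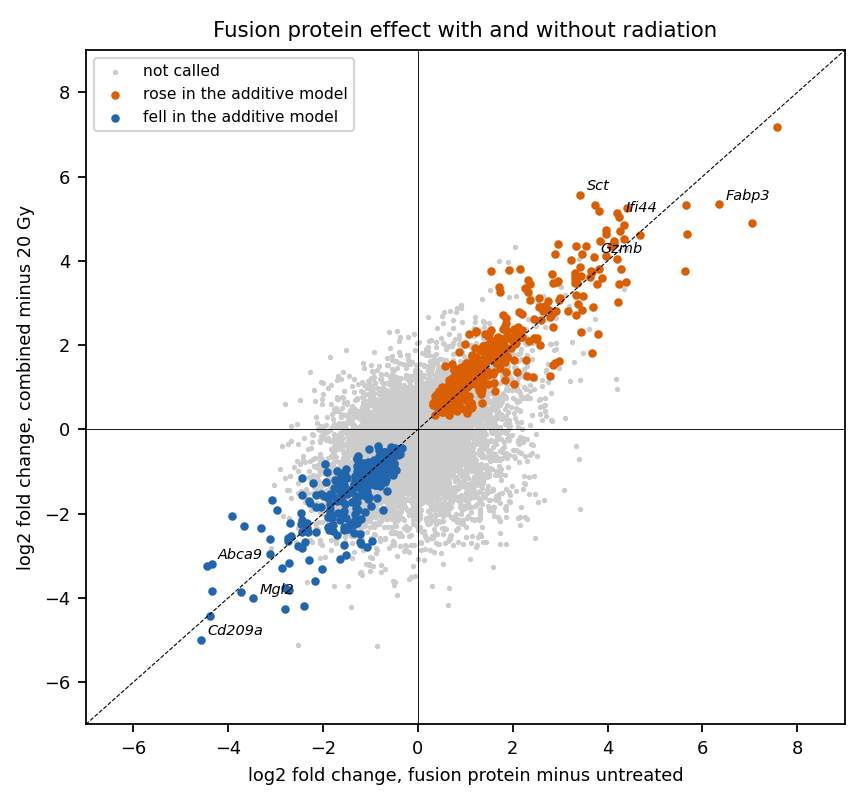
Log2 fold change of each tested gene for fusion protein minus untreated (horizontal axis) and for combined minus 20 Gy (vertical axis), from libraries that the axes do not share. Genes that rose (orange) or fell (blue) in the additive model lie on both sides of the dashed line of equal effect; Cd209a is at −4.57 and −4.99, and Ifi44 at 4.25 and 5.05.

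Rising genes were often neighbours on their chromosome. Of 426 rising genes with a position, 167 (39.2%) stood next to another rising gene in the order of tested genes, whereas 615 of 17824 that did not rise (3.45%) stood next to one. For falling genes it was 16 of 271 (5.9%), and 519 of 17979 (2.89%) for the rest. Runs of 5 rising genes were on chromosome 1 (Ifi204, Ifi203-ps, Mndal, Ifi211 and Ifi203, DNA-binding proteins of the Ifi200 family), chromosome 14 (4 Phf11 genes and Setdb2) and chromosome 7 (around Trim30a), among others. One run of 5 fell, on chromosome 8 from 3707064 to 3878555, with Clec4g, Gm16553, Cd209a, Cd209e and Cd209d. By gene family, 5 of 6 tested Ifit genes, 7 of 8 schlafen (Slfn) genes, 6 of 10 guanylate-binding protein genes and 11 of 15 genes with the symbol Ifi rose, against 2.34% of all tested genes, and 1 of the 15 (Ifi27) fell. Members of such clusters are alike in sequence and some overlap, so they may share reads.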

How the data were processed

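Total RNA of sorted CD45+ CD11c+ tumour cells was made into libraries with the SMARTer Pico v2 stranded total RNA kit, per the labels' protocols. Per the submitters' processing notes, the authors used FastQC, Trimmomatic, STAR, featureCounts and DESeq2 with build mm10 (GRCm38), and the sources used here give neither their versions nor the strand setting of the counting. The deposited signal values are read counts that the authors divided by a size factor per library. Multiplied back by that factor, 100% of values were whole reads within 0.001. Of 55401 identifiers, 55141 (99.53%) matched GENCODE vM21 for symbols and positions, and 6975 were at 0 throughout.

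A gene was tested if 3 or more libraries had a value of 10 or more. Log2(value + 1) was fitted with limma 3.58.1 (variance trend, fusion protein and radiation as additive terms, 12 libraries, 9 residual degrees of freedom, two-sided) and p-values were adjusted over the 18274 tested genes (Benjamini-Hochberg, 0.05); "rose" and "fell" mean past it. Fold changes on this scale understate low genes. The ± is the SE. On recovered reads, edgeR 4.0.16 called 655 genes and DESeq2 1.42.0 called 1429. Other scalings, pseudocounts, filters, covariates, a replicate block and left-out libraries were also tried. The fit was tested on simulated data.

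The comparison, 39 gene lists and rules were chosen with earlier results of these data known. Named genes were the 14 largest rises and falls among called genes with groups that did not overlap and a higher mean of at least 100 (predicted genes and receptor segments left out), 9 fixed genes, 5 by interaction p, and up to 4 of smallest p per list. Other list members and families named were chosen after their values were seen.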

Additional observations from a re-analysis of the deposited data

Results flagged for a closer look

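Among 162 sets of 6 libraries (42 named genes and 39 lists, each with and without the fusion protein), 9 had a highest or lowest library whose gap to the next, divided by the range of the 6, exceeded Dixon's critical value; chance alone gives about 1 in 20. In the libraries with the fusion protein, fusion protein library 3 was the lowest for Tlr11 (0.707), Adam23 (0.666) and the mean level of the MHC class II list (0.762). In the libraries without it, untreated library 2 was the highest for Cd209d (0.789) and Treml2 (0.658) and the lowest for Oas1g (0.725). In that arm 20 Gy library 3 was the highest for Fabp3 (0.657), for the type I interferon list (0.682) and for the mitochondrially encoded list (0.745).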

How the results depend on the processing

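The additive fit called 699 genes, 428 higher and 271 lower. The numbers of genes called, higher and lower were 1429, 778 and 651 by DESeq2, 3189, 1684 and 1505 with a weight per library, 2047, 1216 and 831 with the B and plasma cell level as a covariate, and 1827, 1077 and 750 with the melanoma level. They were 193, 147 and 46 without the 3 libraries with most receptor genes, a fit with fewer samples, 189, 142 and 47 in irradiated and 18, 17 and 1 in unirradiated libraries alone. EdgeR called 655, TMM scaling 733 and the fit of 12 libraries adjusted for receptor genes 659. The replicate block gave 2131 calls (1186 higher, 945 lower), the 699 among them; same-numbered libraries correlated at 0.473 to 0.621 without radiation and 0.01 to 0.505 with it, so the numbers were not taken to pair them, and not every library correlated best with its own number. The block also called Ccl22 (limma adjusted p = 0.00729), Foxp3 (0.0163) and Cxcl10 (0.00104), none of which passed in the additive fit of all 12 libraries. Leaving out 1 library gave 434 to 779 calls, 278 to 506 higher and 153 to 284 lower. Counts moved by over 1.5 times without combined library 3 (434), combined library 1 (437) or 20 Gy library 2 (456), and for falls also without 20 Gy library 1 (158). In all 12 such fits 389 genes (263 higher, 126 lower) stayed called. The interaction had 1 call by DESeq2, which was lower, and 0 by the other fits.

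Among the 42 genes named other than by list, 3 changed sign under an alternative, and none of the 3 passed in the additive fit. List members were not followed under every alternative; some that did not pass also changed sign between irradiated and unirradiated libraries, such as Ms4a2 (−0.02 and 1.10) and S100a8 (−0.40 and 3.33). The log2 fold change of Ccr7 was 0.01 in irradiated libraries alone, 0.17 with library weights, 0.20 without the libraries numbered 3, 0.11 with the B and plasma cell covariate, and −0.56 to 0.34 when 1 library was left out. Fscn1 was at 0.09 without the libraries numbered 3 and −0.75 to 0.12 when 1 was left out, and Cxcl9 at 0.26 without the libraries numbered 3. The cause was not tested. Genes with 0 or few reads in a library limit the fold changes of low genes such as Fabp3, Ccl17 and Cd209e.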

Other observations

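Gene groups outside the lists were looked at after their values were seen, so their counts are descriptions. Of 18 tested genes for receptors of the TGF-beta family and the Smad proteins that carry their signal, 6 fell, 0 rose and 16 were lower (median log2 fold change −0.41), against 1.48% of all tested genes called lower. Acvr2b, an activin receptor, had 2.2, 6.85 and 18 normalized counts (lowest, median and highest of 6) with the fusion protein, against 39.9, 49.5 and 58.9 without (−2.70 ± 0.46 SE, limma adjusted p = 0.00476). Acvr2a, its close relative, had 68.1, 118.3 and 150.2, against 166.6, 229.2 and 298.9 (−1.09 ± 0.18, 0.00415), and Smad4, the shared partner of the pathway's transcription factors, 1071, 1125 and 1237, against 1367, 1450.4 and 1724 (−0.39 ± 0.09, 0.0398). In these 3 the groups did not overlap. Bmpr2 (−0.96 ± 0.16, 0.0051), Acvr1 (−0.98 ± 0.23, 0.0373) and Tgfbr1 (−0.65 ± 0.16, 0.04) overlapped. Smad4, Acvr1 and Tgfbr1 lost their calls in some fits with a library dropped.

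Of 60 tested genes of the histone clusters, 10 rose, 0 fell and 56 were higher (median 0.77), against 2.34% of all tested genes called higher. The largest of the 10 was Hist1h2bm (1.44 ± 0.28, adjusted p = 0.0105). Of the 10, only Hist1h4k and Hist1h2bm kept their calls whichever library was dropped. Of 14 ABCA transporter genes, 3 fell: Abca5 (−1.47 ± 0.27, 0.00769), Abca6 (−2.29 ± 0.58, 0.0473) and Abca9. Abca5 alone among them kept its call whichever library was dropped. The largest rise of all called genes was that of the pseudogene Gm5960 on chromosome 15 (75071112 to 75074638), which the rule for named genes left out; it had 348.5, 818.7 and 1286 counts, against 1.03, 2.88 and 10.7 (7.38 ± 0.47, adjusted p = 3.76e-06).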
